A study of Danio rerio with 6 samples.

Results

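The 7 gene identifiers followed here encode cytoskeleton and adhesion proteins of the zebrafish embryo: cfl1 (ENSDARG00000021124), a pair of identifiers with the symbol dynlrb1 (ENSDARG00000104233 and ENSDARG00000021582), gas2l1 (ENSDARG00000078803), cdh1 (ENSDARG00000102750), actb1 (ENSDARG00000037746) and actb2 (ENSDARG00000037870). They are 7 of the 32054 genes in the count table. The group was chosen by function and with the log2 fold changes of these genes between the morphants and their controls already known, so that the changes given for these 7 are descriptions and carry no test. Messenger RNA was sequenced from whole zebrafish embryos at 4 hpf (hours post fertilization). The controls were then at sphere stage, and epiboly was about to start. Morphants were sampled at the same age as the controls and were not matched by stage. A difference in stage and other effects of the knockdown therefore cannot be told apart. Of the 6 libraries, 3 came from embryos injected with mondoa-mo, a morpholino that blocks translation of mondoa, and 3 from embryos injected with mondoa-mis, a mismatch morpholino, so that both groups were injected. Wild-type fish of the study descended from the AB or the golden strain. RNA was extracted from pooled embryos, and the libraries therefore do not resolve single embryos or tissues.

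Epiboly is the first large cell movement of the zebrafish embryo, in which the blastoderm thins and spreads over the yolk cell. Actin filaments and myosin pull at the blastoderm margin and around the yolk, long microtubule arrays run through the yolk cytoplasm, and E-cadherin holds the cells of the blastoderm together while they move. Cofilin, the product of cfl1, severs and depolymerises actin filaments, while actb1 and actb2 encode the cytoplasmic β-actin that it acts on. Dynlrb1 is a light chain of cytoplasmic dynein, the motor that moves toward the minus ends of microtubules. Gas2l1 binds both actin filaments and microtubules in mammalian cells, and cdh1 encodes E-cadherin itself.

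The total count per library lay between 20685326 and 32100726. Levels are given as CPM, a gene's counts scaled to a common library size, after TMM normalization, and changes as log2 fold changes of mondoa-mo over mondoa-mis with their standard error, from edgeR's quasi-likelihood fit over the 15511 genes that passed the filter on low counts. All 7 identifiers passed it. The transcript of mlxip, which encodes MondoA, averaged 272 ± 5.55 CPM over the mondoa-mis libraries and 325 ± 25.8 CPM over the mondoa-mo libraries (SD, n = 3). A morpholino that blocks translation need not lower its target's transcript, and this level therefore does not check the labels. Replicate spread was smaller in the controls, where the common biological coefficient of variation was 0.0189, than in the morphants, where it was 0.111. Chi-square per degree of freedom was 1.31 to 1.67 for pairs of mondoa-mis libraries and 9.79 to 14.9 for pairs of mondoa-mo libraries. No pair of libraries was within sampling noise. All 6 were counted as separate samples, since the paper calls them biological replicates. Values this close to 1 cannot themselves show that the mondoa-mis libraries came from separate pools of embryos.

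**Figure D1:**
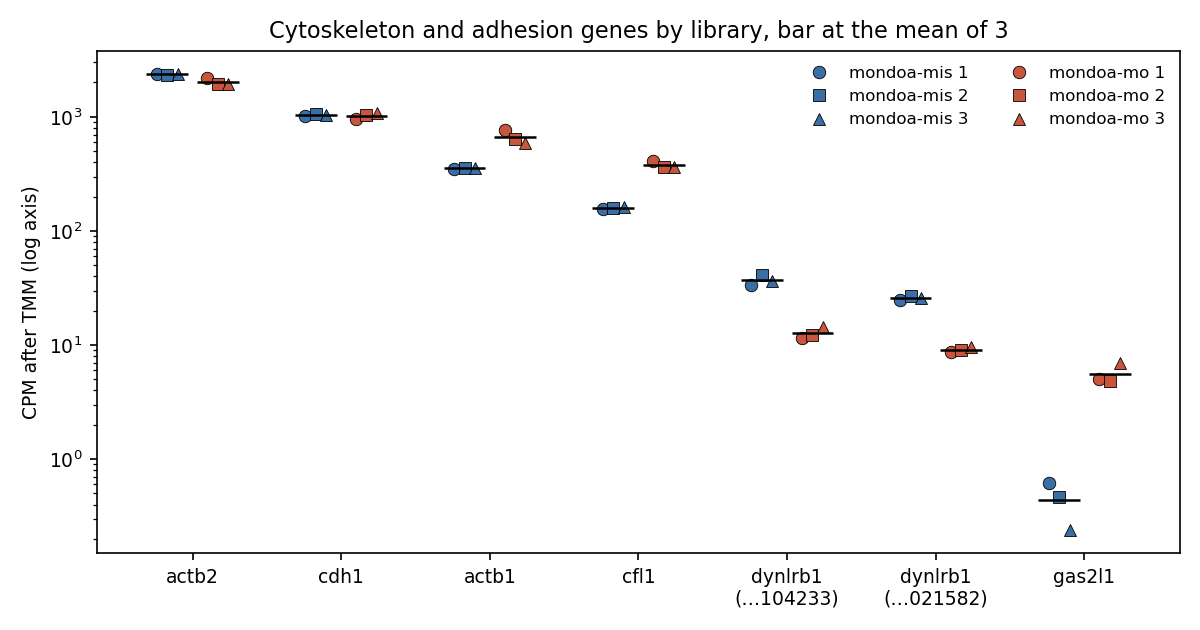
CPM after TMM normalization (log axis) of the 7 identifiers in each library, blue for mondoa-mis, red for mondoa-mo, with the marker shape for the replicate and a bar at the mean of 3. The groups stood apart for gas2l1, both dynlrb1 identifiers, cfl1, actb1 and, by a small margin, actb2, while the cdh1 libraries overlapped, at 949 to 1082 CPM.

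Among the 7 identifiers, 6 had no overlap between the groups, 3 of them higher in the morphants (gas2l1, cfl1 and actb1) and 3 lower (both dynlrb1 identifiers and actb2). A separation of this kind was found for 47.8% of all genes tested, 24.3% higher and 23.5% lower, and since the genes were chosen with this contrast in view nothing is read from the number. The log2 fold change was 1 or more in size for 4 identifiers, where 4.33% of all genes tested had such a change. Of these, gas2l1 and cfl1 were among the 1.68% at 1 or above and both dynlrb1 identifiers among the 2.64% at -1 or below. Nothing is read from this number either, since these changes were known when the genes were chosen. The identifier whose groups overlapped was cdh1, with a log2 fold change of -0.020.

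Transcripts of the cofilin gene cfl1 were more than doubled in the morphants. The level of cfl1 was 155, 160.2 and 160.5 CPM in mondoa-mis replicates 1, 2 and 3, and 413, 360.0 and 362 CPM in mondoa-mo replicates 1, 2 and 3. All mondoa-mo libraries were therefore high and none came near the control range, with 199.5 CPM between the nearest libraries of the groups. The means were 158 ± 3.25 and 379 ± 30.2 CPM (SD, n = 3). The log2 fold change was 1.26 (standard error 0.0586), a 2.39-fold higher level, and fits without one of the libraries gave 1.19 to 1.29. Per kilobase of transcript, cfl1 ranked 660 among the genes tested in mondoa-mis and 170 in mondoa-mo.

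Of the pair of β-actin genes, actb1 was higher and actb2 slightly lower in the morphants. The level of actb1 was 348, 355.3 and 355.3 CPM in mondoa-mis and 764, 634 and 585 CPM in mondoa-mo. Replicate 1 was the highest of the mondoa-mo libraries, but the lowest, replicate 3, was still 229.7 CPM above every control. The log2 fold change was 0.91 (standard error 0.0820), with means of 353 ± 4.44 and 661 ± 92.3 CPM (SD, n = 3), and fits without one of the libraries gave 0.79 to 0.99.

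Far more counts fell on actb2, which ranked 3 by CPM among all genes tested in mondoa-mis. Its level was 2394, 2348 and 2361 CPM in mondoa-mis and 2202, 1929 and 1941 CPM in mondoa-mo. The groups were separated by 146 CPM, about the SD of 154 among the mondoa-mo libraries. The log2 fold change was -0.23 (standard error 0.0533), from 2368 ± 23.7 to 2024 ± 154 CPM (SD, n = 3), and fits without one of the libraries gave -0.29 to -0.20.

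**Figure D2:**
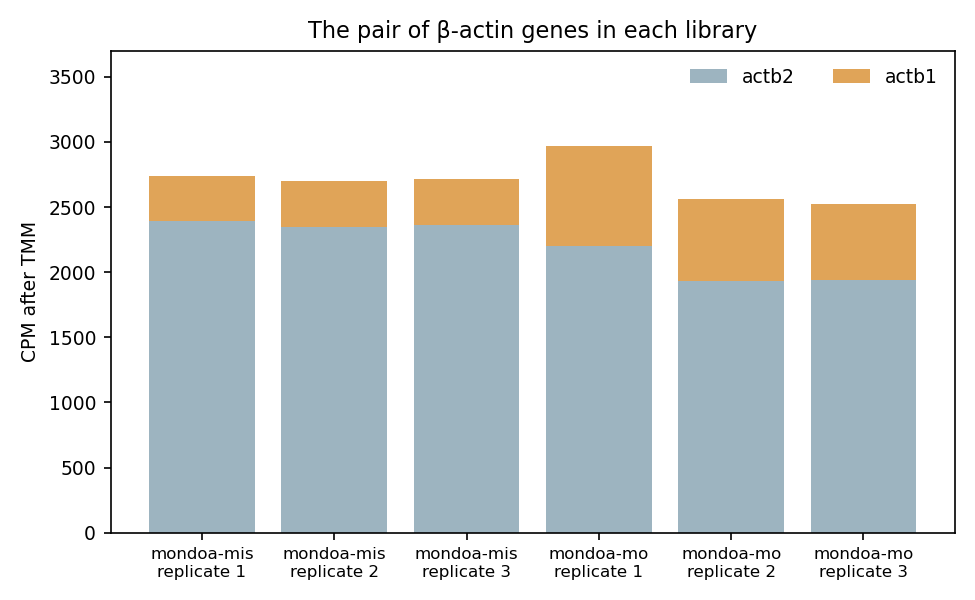
CPM after TMM normalization of actb2 (grey) and actb1 (orange) stacked for each of the 6 libraries, on an axis that starts at 0. The share of actb1 is larger in all 3 mondoa-mo libraries, while the height of the stack, 2526 to 2966 CPM in mondoa-mo, includes the range of mondoa-mis, 2703 to 2741 CPM.

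The opposite changes left the summed β-actin level within the spread of the morphants. The sum of actb1 and actb2 was 2741, 2703 and 2716 CPM in mondoa-mis, and 2966, 2563 and 2526 CPM in mondoa-mo. One mondoa-mo library lay above the controls and the others below them, and the means were 2720 ± 19.5 and 2685 ± 244 CPM (SD, n = 3). What differed was the make-up of the sum. Of the counts on the pair of genes, actb1 held 12.7%, 13.1% and 13.1% in mondoa-mis and 25.7%, 24.8% and 23.2% in mondoa-mo. The 95% Wilson intervals of these shares lay between 12.4% and 13.4% over the mondoa-mis libraries and between 22.8% and 26.0% over the mondoa-mo libraries, and cover counting error only. Per kilobase, the level of actb2 was 8.94 ± 0.202 times that of actb1 in mondoa-mis and 4.11 ± 0.293 times in mondoa-mo (SD, n = 3). The coding sequences of the pair are alike, and read pairs that match both equally well are not counted as uniquely mapped. The level of each and their sum are therefore uncertain.

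The dynein light chain dynlrb1 was lower in the morphants at both identifiers. ENSDARG00000104233 was at 33.9, 41.0 and 36.6 CPM in mondoa-mis and 11.5, 12.3 and 14.5 CPM in mondoa-mo. ENSDARG00000021582 was at 24.8, 27.1 and 25.9 CPM in mondoa-mis and 8.64, 9.12 and 9.60 CPM in mondoa-mo. In each case the highest mondoa-mo library was below the lowest control by more than the whole range of either group. The log2 fold changes were -1.55 (standard error 0.106), or 2.92-fold lower, and -1.51 (standard error 0.0853), or 2.85-fold lower. Leaving out each library in turn gave -1.65 to -1.47 for the first and -1.55 to -1.47 for the second.

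Both dynlrb1 identifiers moved together in every library. ENSDARG00000104233 held 57.8%, 60.2% and 58.5% of the counts on the pair in mondoa-mis and 57.1%, 57.4% and 60.1% in mondoa-mo. These shares overlapped between the groups, with means of 58.8% ± 1.23 and 58.2% ± 1.68 (SD, n = 3). Summed over the pair, dynlrb1 fell from 63.1 ± 4.71 to 21.9 ± 2.01 CPM, again without overlap. The symbol dynlrb1 for both comes from the study's own gene table, whereas the gene name table used here gives it to ENSDARG00000021582 and names the other si:dkey-57n24.9. Counting kept only unique matches, and any fragment that could come from either dynlrb1 identifier would thus be missing from both. How alike their sequences are was not examined. The split between these identifiers and their summed level are therefore both uncertain.

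The gene with the highest log2 fold change of all 15511 tested was gas2l1. It had 15, 11 and 5 counts in mondoa-mis replicates 1, 2 and 3, and 156, 105 and 167 counts in the mondoa-mo replicates. As levels these were 0.613, 0.468 and 0.238 CPM against 4.99, 4.84 and 6.97 CPM. Every mondoa-mo library was thus several times higher than every control, although per kilobase the control level was above only 0.58% of the genes tested. With so few control counts, gas2l1 passed the filter on low counts through its mondoa-mo libraries. Genes as low in both groups were left out, so that its control rank and its first place hold only among the genes tested. The exact 95% Poisson intervals reached at most 1.01 CPM in mondoa-mis and went down to no less than 3.96 CPM in mondoa-mo, and cover counting error only. The log2 fold change was 3.63 (standard error 0.279), a 12.4-fold higher level, and fits without one of the libraries gave 3.36 to 3.94. Even in the morphants gas2l1 stood low, at 0.881 ± 0.187 CPM per kilobase, above 19.9% of the genes tested.

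E-cadherin transcripts were abundant and alike in both groups. The level of cdh1 was 1026, 1058 and 1037 CPM in mondoa-mis and 949, 1048 and 1082 CPM in mondoa-mo. The lowest and the highest of the 6 libraries were both morphants, so that the controls lay inside the mondoa-mo range. The means were 1040 ± 16.5 and 1026 ± 69.4 CPM (SD, n = 3), and the log2 fold change of -0.020 had a standard error of 0.0515. It stayed between -0.060 and 0.034 with each library left out, turning positive in some of these fits.

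**Figure D3:**
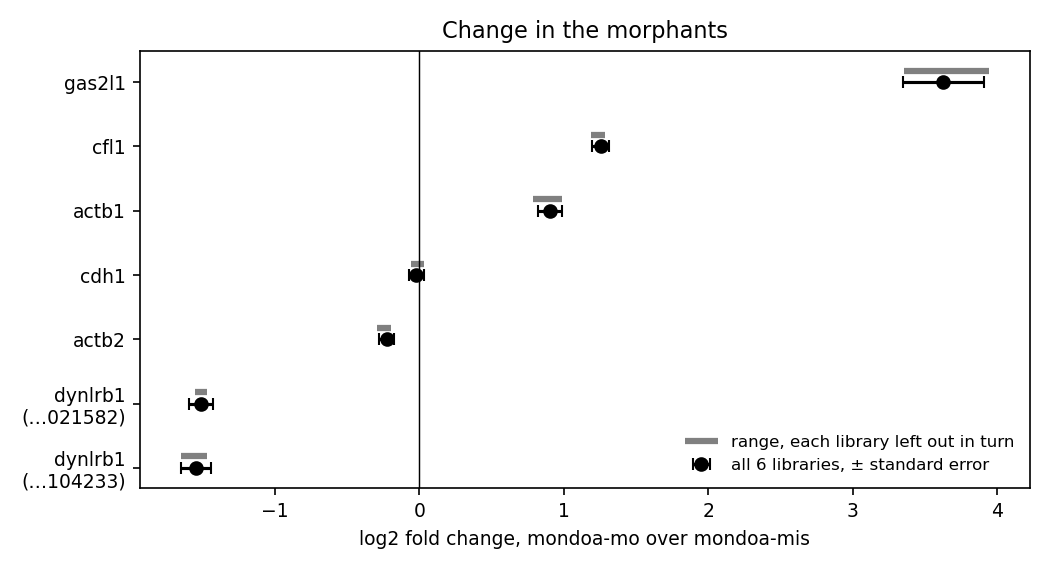
Log2 fold change of mondoa-mo over mondoa-mis for the 7 identifiers, with the standard error of the fit on all 6 libraries (black) and the range over the 6 fits that each left out a library (grey). For 6 identifiers the value keeps its sign, from -1.55 for dynlrb1 (ENSDARG00000104233) to 3.63 for gas2l1, and cdh1 lies at 0 within its error.

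The order of the mean levels changed with these shifts. On the scale of CPM per kilobase in mondoa-mis, actb2 came first at 1094 ± 10.9, followed by cdh1 at 201 ± 3.18, actb1 at 122 ± 1.54 and cfl1 at 90.0 ± 1.85 (SD, n = 3). Below them were ENSDARG00000104233 at 34.0 ± 3.25 and ENSDARG00000021582 at 30.6 ± 1.37, whose libraries overlapped, and gas2l1 at 0.0692 ± 0.0298. In mondoa-mo, actb2 at 935 ± 71.3 was followed by actb1 at 229 ± 32.0, cfl1 at 215 ± 17.1 and cdh1 at 198 ± 13.4. These last 3 all overlapped, and in mondoa-mo replicate 3 cdh1 at 208.8 was above cfl1 at 205.6 and actb1 at 202.8. Thus cdh1, clearly above actb1 and cfl1 in the controls, could not be ranked against either in the morphants. Relative to the summed β-actin level per kilobase, cfl1 was 7.16%, 7.53% and 7.51% in mondoa-mis and 18.3%, 18.4% and 18.7% in mondoa-mo, a narrower spread among the morphants than that of cfl1 alone.

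β-actin transcripts served as the reference in the study's RT-qPCR, and the change of each gene was therefore also expressed relative to them. Relative to actb1, cfl1 was higher by 0.36 on the log2 scale, and relative to actb2 by 1.48. The difference for ENSDARG00000021582 was -2.41 relative to actb1 and -1.28 relative to actb2. For cdh1 the sign itself depended on the choice, with -0.92 relative to actb1, where the groups did not overlap, and 0.21 relative to actb2, where they did. Relative to the summed CPM of the pair the differences were 1.28 for cfl1, -1.49 for ENSDARG00000021582 and 0.00073 for cdh1, close to those after TMM normalization. The paper measured cfl1 and dynlrb1 by this RT-qPCR, among randomly picked genes that differed in its sequencing. It reports that the RT-qPCR bore out the sequencing. Which of the β-actin genes the RT-qPCR primers amplify was not examined.

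**Figure D4:**
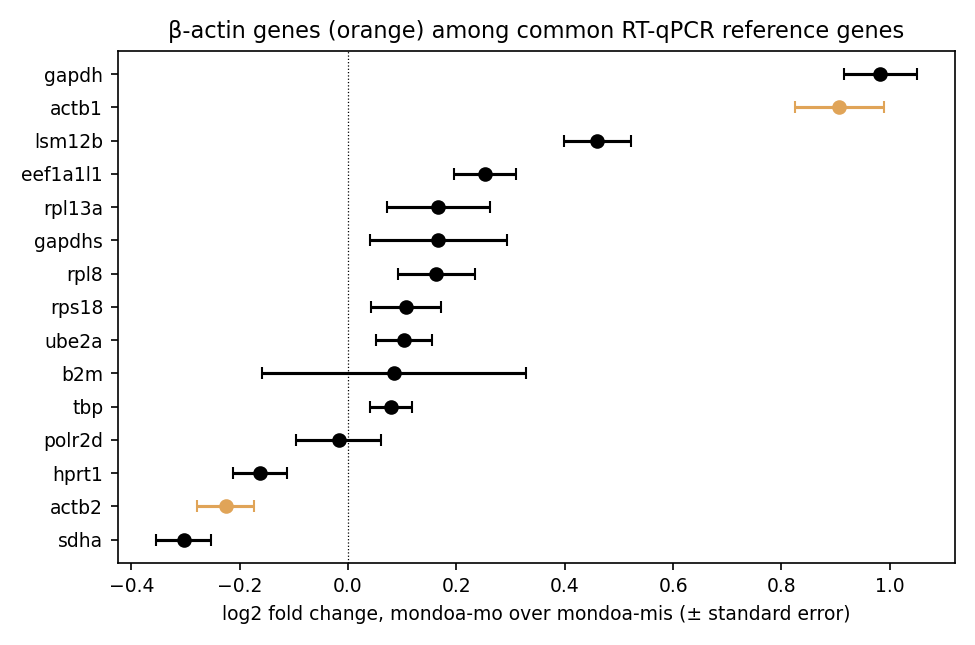
Log2 fold change of mondoa-mo over mondoa-mis with its standard error for 15 genes often used as RT-qPCR references, the β-actin genes in orange. The value of actb1, 0.91, is second to gapdh, 0.98, and that of actb2, -0.23, is second lowest, above sdha, -0.30.

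Beside other common reference genes the change of actb1, which was chosen with this contrast in view, was large, though gapdh changed by more. Of 13 such genes other than β-actin, all tested, 3 rose and 2 fell in the morphants (edgeR's quasi-likelihood test, adjusted p under 0.05), where 16.9% of all genes tested rose and 15.4% fell. Without mondoa-mo replicate 2 the number that rose was 5, and without any one of the mondoa-mis libraries or mondoa-mo replicate 1 the number that fell was 1. The glycolytic enzyme gapdh rose from 122 ± 5.58 to 242 ± 21.9 CPM, a log2 fold change of 0.98 (standard error 0.0673). The translation elongation factor eef1a1l1 rose by 0.25 and lsm12b by 0.46, while sdha, of the respiratory chain, had -0.30 and hprt1, of purine salvage, -0.16. hprt1 did not pass in some of the fits that left out a library (adjusted p up to 0.13), whereas the others did. The remaining 8, gapdhs, rpl13a, rpl8, rps18, tbp, b2m, polr2d and ube2a, had log2 fold changes between -0.017 and 0.17 and did not pass, though rpl8 and rps18 did without mondoa-mo replicate 2.

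Actin genes beyond the members moved in both directions. Each except cap1 changed by less than cfl1, which was chosen with this contrast in view. Of 98 other identifiers in 4 lists of actin genes, 85 were tested, 19 rose and 15 fell, beside 16.9% and 15.4% of all genes. The same shares over all genes stand beside the counts of every list below. The median given next is that of the 85 tested genes. Their median log2 fold change was 0.070, against 0.0027 over all genes tested. Without mondoa-mis replicates 1, 2 or 3 the number that rose was 10, 10 and 8. The other actin isoforms were nearly absent, with 3 of 6 tested by edgeR and 6 by DESeq2. With all libraries none passed by either, also at an unadjusted p under 0.05. Without mondoa-mo replicate 2, edgeR gave 1 that rose at an unadjusted p under 0.05 and 0 after adjustment. The highest isoform, acta1 (ENSDARG00000055618), a muscle actin, was at 1.201 ± 0.102 CPM in mondoa-mis.

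Among 27 other genes of actin monomer and filament turnover, 22 were tested, 4 rose and 3 fell. The number that rose was 0 by edgeR without mondoa-mis replicates 1, 2 or 3, with 5, 3 and 5 at an unadjusted p under 0.05, and 2 without mondoa-mo replicate 1, while DESeq2 on all libraries gave 4. Scaling by library size alone gave 1 that rose. The number that fell was 5 without mondoa-mo replicate 3. The cyclase-associated protein gene cap1, whose product recycles actin monomers together with cofilin, fell from 39.1 ± 1.18 to 13.4 ± 1.91 CPM (SD, n = 3). Its log2 fold change of -1.53 was opposite in sign to that of cfl1 (adjusted p = 5e-06, edgeR's quasi-likelihood test). Twinfilin, twf1a, fell by 0.50 on the log2 scale, and pfn2 (ENSDARG00000003952), a profilin and the most abundant gene of the list at 1457 ± 26.5 CPM in mondoa-mis, by 0.18. The rises were 0.54 for limk1, the kinase that inactivates cofilin, 0.25 for the severing protein gene gsn and 0.19 for the profilin gene pfn1. The pfn2, limk1, gsn and pfn1 calls were lost in at least one fit that left out a library, with adjusted p-values up to 0.16.

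Of 31 genes for actin nucleation and capping, 29 were tested, 9 rose and 7 fell. Without mondoa-mis replicate 3 the number that rose was 5, and without mondoa-mis replicates 1 or 2 the number that fell was 4. Subunits of the Arp2/3 complex, which starts branched filaments, stood on both sides. The genes arpc4l, arpc5 (ENSDARG00000019062) and arpc4 had log2 fold changes of -0.82, -0.56 and -0.45, while arpc3 had 0.65. Further subunit genes, chosen after their values were seen, also rose and passed with each library left out, arpc2 by 0.29 and arpc1a by 0.25. The formin gene fmnl2b rose by 0.45 and capzb, of the capping protein, by 0.44. The most abundant gene of the list, wasf2, an activator of Arp2/3, had 0.050 and did not pass (adjusted p = 0.48, edgeR). The calls of arpc3 and arpc5 were lost without one of several libraries, with adjusted p-values up to 0.14.

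In the actomyosin cortex, 6 of 31 genes tested rose and 5 fell, of 34 in the list. The number that rose was 3 without mondoa-mis replicate 3 and 10 without mondoa-mo replicate 2. Anillin, anln, a scaffold of the contractile ring in cell division, fell from 907 ± 3.25 to 445 ± 55.2 CPM, a log2 fold change of -1.03 (adjusted p = 9.8e-06, edgeR's quasi-likelihood test). The small GTPase gene rac1b had -0.51 and the myosin light chain gene myl12.1 had -0.33. Filamin, flna, an actin crosslinker, rose from 99.4 ± 0.954 to 148 ± 1.68 CPM, a log2 fold change of 0.57. The rises of myh14, 0.71, and actn1, 0.47, were lost without some libraries (adjusted p up to 0.11). The gene of highest mean CPM over all 6 libraries, though not over mondoa-mis, was the non-muscle myosin gene myh9, which had 0.11 and did not pass with all libraries (adjusted p = 0.063), but did without mondoa-mo replicate 2.

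**Figure D5:**
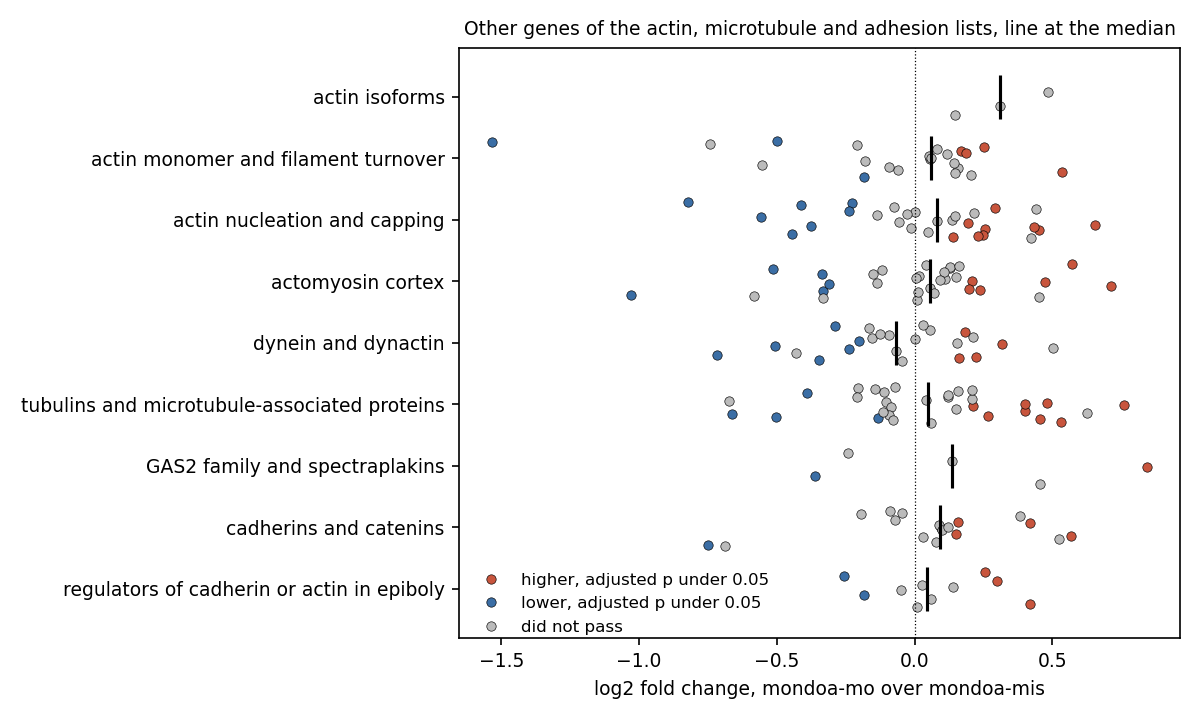
Log2 fold change of mondoa-mo over mondoa-mis for each tested gene of the actin, microtubule and adhesion lists, without the 7 identifiers, red for higher and blue for lower at an adjusted p under 0.05, grey for the rest, with a line at each list's median. The points spread on both sides of 0 in each list with more than 3 tested genes, and they lie between -1.53 for cap1 and 0.84 for dst.

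No other dynein or dynactin gene fell as far as dynlrb1, which was chosen with this contrast in view. Of 26 identifiers other than dynlrb1, 23 were tested, 4 rose and 6 fell, where 16.9% of all genes tested rose and 15.4% fell. Their median log2 fold change was -0.065. Without mondoa-mis replicates 1, 2 or 3 the number that fell was 3 each time, and the number that rose was 1, 0 and 1 by edgeR, with 5, 4 and 4 at an unadjusted p under 0.05, while DESeq2 on all libraries gave 3. Scaling by library size alone gave 1 that rose and 7 that fell. The light intermediate chain gene dync1li2 fell from 253 ± 1.42 to 154 ± 23.3 CPM, a log2 fold change of -0.72 (adjusted p = 0.00023, edgeR's quasi-likelihood test). The dynactin subunit gene dctn3 had -0.51 and the light chain gene dynlt3 -0.35. The heavy chain gene dync1h1 had 0.32, the intermediate chain gene dync1i2a 0.22 and the dynactin gene actr10 0.18. The gene pafah1b1, which encodes the dynein regulator Lis1 and had the highest mean CPM over all 6 libraries, though not over mondoa-mis, fell by 0.20 on the log2 scale. Of these 7, dync1li2 and dctn3 passed with each library left out, and the other 5 did not in at least one such fit (adjusted p up to 0.14).

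Among tubulins and microtubule-associated proteins, 32 of 39 were tested, 8 rose and 4 fell, where 16.9% of all genes tested rose and 15.4% fell. The number that fell was 2 without mondoa-mis replicate 2. The spindle genes tacc3 and ckap5 rose by 0.76 and 0.48, and the γ-tubulin complex gene tubgcp3 by 0.53. The most abundant, tpx2, a spindle assembly factor, rose from 1047 ± 7.97 to 1212 ± 39.0 CPM. The microtubule destabiliser gene stmn1a fell from 168 ± 6.09 to 106 ± 6.66 CPM, and the severing enzyme gene katna1 by 0.39 on the log2 scale. The plus-end binding protein gene mapre3 (ENSDARG00000102878) had -0.50, which did not pass without mondoa-mis replicate 2 (adjusted p = 0.064, edgeR). Over the dynein, tubulin and GAS2 lists together 13 of 60 tested genes rose and 11 fell. These are 21.7% and 18.3%, beside 16.9% and 15.4% of all genes tested. Without mondoa-mis replicates 1, 2 or 3 the number that fell was 7, 6 and 7.

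The relatives of gas2l1 could only rise by less, since gas2l1 had the highest log2 fold change of all genes tested. Of 7 other genes of the GAS2 family and the spectraplakins, which also link actin to microtubules, 5 were tested. One, dst, rose from 1.18 ± 0.180 to 2.11 ± 0.290 CPM, a log2 fold change of 0.84, though not without mondoa-mis replicate 1 (adjusted p = 0.067, edgeR). Another, gas2, fell from 23.6 ± 0.650 to 18.3 ± 0.491 CPM, a log2 fold change of -0.36 that passed with each library left out, and without mondoa-mo replicate 2 the number that fell was 2. The most abundant, macf1a, had 0.14 and did not pass with all libraries (adjusted p = 0.058), but did without mondoa-mo replicate 1.

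Of 20 other cadherin, catenin and nectin genes, 18 were tested, 4 rose and 1 fell, where 32.3% of all genes tested changed. Fits without one of the libraries gave 2 to 6 that rose and at most 2 that fell. The nectins nectin1b and nectin3b, adhesion receptors of adherens junctions, rose by 0.57 and 0.42 and passed with each library left out. The p120 catenin gene ctnnd1, whose product stabilises cadherins at the membrane, had 0.16, and cdh5, the cadherin of blood vessels, had -0.75 at a level of only 2.86 ± 0.278 CPM in mondoa-mis. Neither passed in every fit that left out a library (adjusted p up to 0.14, edgeR). The most abundant, the β-catenin gene ctnnb2 at 1831 ± 43.2 CPM in mondoa-mis, had 0.078 and did not pass. Among 13 genes known to regulate cadherin or actin in epiboly or cell movement, 10 were tested, 3 rose and 2 fell, with no more than 1 that fell without any one of the mondoa-mis libraries. The channel kinase gene trpm7 rose from 281 ± 11.6 to 376 ± 26.8 CPM, a log2 fold change of 0.42. The gna13 genes (ENSDARG00000037924 and ENSDARG00000073765), for a G protein subunit, had 0.30 and 0.26, and rab5a and arhgef11 had -0.25 and -0.19. Among these 4 only the first gna13 gene passed with each library left out, and the others reached adjusted p-values up to 0.12. Over both adhesion lists 7 of 28 tested genes rose and 3 fell. Without mondoa-mis replicates 1, 2 or 3 there were 4 that rose each time and no more than 1 that fell.

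Whole embryos matched by age were sequenced, so that fewer cells of a type, less RNA per cell and a difference in stage cannot be told apart. The summed level of 10 enveloping layer markers, 1 of them at or under 3 counts in every library, was 236 to 245 CPM in mondoa-mis and 185 to 230.1 CPM in mondoa-mo. Without grhl3 the direction turned, and the other 9 summed to 121 to 125 CPM in mondoa-mis and 157 to 197.5 CPM in mondoa-mo. Not all of these rose. The means of cldne went from 17.6 to 39.3 CPM, of ppl from 48.8 to 76.95 CPM and of krt18a.1 from 31.45 to 37.3 CPM. Those of krt4 went from 11.8 to 7.60 CPM and of krt8 from 13.1 to 9.55 CPM. The groups overlapped for each of these keratin genes, and none passed. The sum was 13.0 to 15.2 and 17.3 to 29.4 CPM for 5 yolk syncytial layer markers, 524 to 533 and 632 to 716 CPM for 5 germ cell markers, and 2059 to 2095 and 2177 to 2537 CPM for 7 deep cell markers. The 7 skeletal muscle markers, 2 of them at or under 3 counts throughout, summed to 4.497 to 5.13 and 3.09 to 5.15 CPM. The marker counts that follow stand beside 16.9% of all genes tested that rose and 15.4% that fell. By edgeR's test, 2 of 7 tested enveloping layer genes rose (cldne by 1.16 and ppl by 0.66 on the log2 scale) and grhl3 fell, with -1.87. Among 3 tested yolk syncytial layer markers mxtx1 rose by 1.10, while mxtx2 had 0.17 and slc40a1 0.079 and did not pass. All 5 germ cell markers were tested and 4 rose, among them dnd1 by 0.54, dazl by 0.48 and ddx4 by 0.32. Of the 7 deep cell markers 5 rose, among them sox3 by 1.22, vox by 1.12 and tbxta by 0.69, while vent had -1.74. Of 4 muscle genes tested, ckma fell, with -2.63. The calls of tbxta, tbx16 and nanog did not pass in every fit that left out a library (adjusted p up to 0.15, edgeR). Of these, tbx16 had 0.63 with groups that overlapped (adjusted p = 0.048 with all libraries, edgeR's quasi-likelihood test). The most abundant deep cell markers, nanog at 1070 and pou5f3 at 777 CPM in mondoa-mis, made up most of the deep cell sum. The change was 0.16 for nanog and -0.12 for pou5f3, whose groups overlapped and which did not pass with all libraries. The call of tdrd7a, the most abundant germ cell marker, at 0.28, was also lost in at least one such fit (adjusted p up to 0.055, edgeR). Whether the level of a marker follows the number of its cells at this stage was not tested. The part of these shifts in the changes of the cytoskeleton and adhesion genes was not tested either.

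The genes with the most similar pattern were sought for each member among 10272 genes with a symbol and a mean of at least 5 CPM, by Euclidean distance of log2 CPM centred on the mean of the 6 libraries. For ENSDARG00000104233 the nearest gene was the other dynlrb1 identifier, at a distance of 0.181, followed by mrpl37, of the mitochondrial ribosome, at 0.279. Seen from ENSDARG00000021582, utp20, of ribosome biogenesis, at 0.155 and the proteasome subunit gene psma6a at 0.171 were nearer, and the other dynlrb1 identifier was number 4. The nearest to actb1 were ppib, a cyclophilin of the endoplasmic reticulum, at 0.0847 and the taurine transporter gene slc6a6b at 0.106. The nearest to cfl1 were acbd3 (ENSDARG00000042623) at 0.171 and nfe2 at 0.180, and to actb2 the tRNA synthetase gene yars1 at 0.0305 and zgc:109889 at 0.0453. For cdh1 they were ddb2 and abat, at 0.0350 and 0.0362. For gas2l1 the nearest candidates were thumpd1 at 1.82 and top1mt at 2.33. Large distances were built in here, because gas2l1 had the highest log2 fold change of all genes tested. The minimum of 5 CPM also left out genes whose mean was as low as that of gas2l1. Its log2 CPM had an SD of 0.70 among the controls, from 15, 11 and 5 counts. The distances of gas2l1 therefore cannot show whether its pattern is unusual. All distances given here describe 6 libraries in 2 groups, which share the injection contrast.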

How the data were processed

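The authors extracted RNA from embryos with TRIzol, made TruSeq mRNA libraries, mapped read pairs to GRCz11 with STAR 2.3.8 and deposited, for each Ensembl gene, the raw count of read pairs with a unique match, with a gene length in bases that served here only to scale levels per kilobase. Strand use in counting is not given in the sources used here, so that overlapping genes are uncertain. Symbols came from the study's gene table (3762 identifiers) and a gene name table, together for 29046 of 32054 identifiers.

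Counts were filtered by filterByExpr, normalized by TMM and compared by edgeR 4.0.16's quasi-likelihood test in R 4.3.3 without covariates, with Benjamini-Hochberg adjustment over all genes tested and a threshold of 0.05. With 3 libraries per group, p-values measure the spread between these libraries. For mondoa-mis the values cannot show that this is a spread between separate pools of embryos. Dispersion was fitted per gene over both groups together, although the common biological coefficient of variation was 0.0189 in mondoa-mis and 0.111 in mondoa-mo. These p-values, and the standard errors calculated from the same test, therefore mix the spreads and can understate that of the morphants. Without a mondoa-mis library 3119 to 3275 genes changed, and without a mondoa-mo library 4716 to 5832. Whether the pooling caused this was not tested. No sequence file was used here, and none is printed.

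The members and lists were chosen with earlier results of these data known. Of each list's symbols, 88% to 100% were matched, except for skeletal muscle with 5 of 8. A paralog whose suffix the name table lacks was matched by its stem. Beside the members, the text names the 3 highest rises and 3 lowest falls that passed in each list and its gene of highest mean CPM over the 6 libraries. It also names all reference genes and, for each member, the 2 nearest patterns. Some further list genes are named that were chosen after their values were seen. The alternatives were 2 normalizations, 2 filters, DESeq2 1.42.0, the replicate number as a block, and each library left out.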

Additional observations from a re-analysis of the deposited data

How the results depend on the processing

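Under all 12 alternatives, the log2 fold changes of 6 of the 7 identifiers kept their sign, and each of the 7 moved by less than the replicate SDs of log2 CPM of both groups combined (the root of their summed squares), though cfl1, cdh1, actb1 and actb2 moved by more than the SD of mondoa-mis alone and gas2l1 by more than that of mondoa-mo alone. They stayed within 1.19 to 1.29 for cfl1, -1.65 to -1.47 and -1.55 to -1.47 for dynlrb1, 3.36 to 3.94 for gas2l1, 0.79 to 0.99 for actb1 and -0.29 to -0.20 for actb2, and cdh1, whose groups overlap, lay between -0.062 and 0.034. Scaling by library size alone gave 2137 higher and 2870 lower genes, against 2621 and 2396 after TMM, and 4 rather than 7 adhesion genes rose. Across the fits that each left out a library, 3119 to 5832 genes changed, 1632 to 3039 higher and 1487 to 2793 lower. Of the list genes, 8 to 22 actin, 9 to 15 microtubule and 4 to 9 adhesion genes rose, and 10 to 19, 6 to 13 and 0 to 4 fell. The lowest total was without mondoa-mis replicate 2, and the cause was not tested. Of 20 numbers of rising or falling genes in single lists, 15 moved by over 1.5 times in at least one alternative. Of 61 list genes outside the marker lists that were named by rule, 21 lost the threshold and 4 gained it in at least one alternative, and none reversed. The replicate numbers were not treated as pairs, because libraries with one number deviated little together, with correlations over genes of 0.073, 0.039 and 0.043, although every library correlated best with its own number. With the replicate block 5281 genes changed, 2692 higher and 2589 lower. Low counts limit gas2l1 in the controls.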
